A study of Homo sapiens with 8 samples.

Results

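Nuclear genes for the subunits of oxidative phosphorylation were taken from the deposited count table by symbol: the NDUFA, NDUFB, NDUFC, NDUFS and NDUFV genes of complex I, SDHA to SDHD of complex II, the UQCR genes and CYC1 of complex III, the numbered cytochrome c oxidase genes of complex IV, the ATP5 genes of complex V, and CYCS. This symbol rule found 88 of the 23346 listed genes, and no measured value entered the choice. Of these, 81 encode subunits or their tissue isoforms. The other 7 match by name alone: the processed pseudogenes UQCRBP1 and ATP5EP2, the intronless copies UQCRHL and ATP5L2, the readthrough gene ATP5J2-PTCD1, and ATP5S and ATP5SL, which are not subunits. The table held 0 genes of mitochondrial DNA, so the subunits encoded there were not analysed here. The rule also passes over some nuclear subunits with other names, among them COX4I1, which is described beside its partner isoform.

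The series sequenced polyadenylated RNA from 8 replicates of hCMEC/D3, a clonal line of brain microvascular endothelium from a human donor that was immortalised and is used in culture to model the blood-brain barrier. The labels give no treatment, genotype or second condition, so all 8 libraries form 1 group and no contrast between conditions exists. They do not say whether the replicates were separate cultures, so p-values measure the spread among these libraries, which may be technical. Levels are given as CPM (counts scaled to a fixed total per library) on library sizes scaled by the trimmed mean of M-values, and between genes as CPM per kilobase of transcript (RPKM).

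Oxidative phosphorylation is carried out by 5 complexes of the inner mitochondrial membrane. Complex I takes electrons from NADH and complex II from succinate; complex III passes them to the mobile carrier cytochrome c, and complex IV hands them to oxygen. Complexes I, III and IV pump protons as they work, and complex V, the ATP synthase, lets the protons flow back and makes ATP. Except for complex II, each complex joins products of mitochondrial DNA to a larger number of nuclear products, so the nuclear genes must be expressed together. Brain endothelium has long been described as rich in mitochondria compared with endothelium elsewhere.

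Promoters of these genes are known for binding sites of NRF1, of the ETS family factor GABP, of YY1 and of the oestrogen-related receptors. RefSeq promoters (GRCh38.p14, from 250 bases before to 50 bases after the start) were at hand for 66 of the 88 genes and for 27305 genes in all, and each motif was searched on both strands. The NRF1 motif, with the fifth letter left free, was found in 16 of the 66 (24.2%, against 6.98% of all promoters). The ETS motif CCGGAAG was found in 19 (28.8% against 12.2%), the YY1 motif AAGATGGC in 12 (18.2% against 3.52%) and the receptor motif AAGGTCA in 10 (15.2% against 4.80%). At least 1 of these 4 motifs was present in 41 of the 66 promoters (62.1%), against 24.0% of all promoters. The CCAAT box, searched as ATTGG, was no more frequent here than elsewhere by its share (37.9% against 39.7%), and the SP1 motif GGGCGG was found in 59.1% against 48.3%. A match is a run of letters and not a shown binding site, and motifs may overlap one another.

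The 250 bases before the start are printed 5′ to 3′ for 5 genes on which the results below turn: an expressed isoform and its undetected partner (COX6A1 and COX6A2), a gene with almost the same level in every library (SDHD), and a pair that ranged widely (NDUFB7 and NDUFA13). Capitals mark NRF1 and ETS motifs, and the window of COX6A2 holds none of the 4 motifs.
COX6A1 promoter, chr12:120437863-120438112, forward strand: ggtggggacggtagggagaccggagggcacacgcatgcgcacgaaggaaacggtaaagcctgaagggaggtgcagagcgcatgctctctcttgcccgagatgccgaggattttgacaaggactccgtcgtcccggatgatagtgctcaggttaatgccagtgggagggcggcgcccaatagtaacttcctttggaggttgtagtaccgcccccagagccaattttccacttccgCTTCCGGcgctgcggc
COX6A2 promoter, chr16:31428361-31428610, reverse strand: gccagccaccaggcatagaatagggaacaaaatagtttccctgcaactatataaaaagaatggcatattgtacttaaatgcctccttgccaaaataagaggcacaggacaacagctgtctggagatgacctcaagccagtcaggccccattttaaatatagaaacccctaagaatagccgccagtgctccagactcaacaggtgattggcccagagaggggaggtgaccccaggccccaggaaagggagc
SDHD promoter, chr11:112086623-112086872, forward strand: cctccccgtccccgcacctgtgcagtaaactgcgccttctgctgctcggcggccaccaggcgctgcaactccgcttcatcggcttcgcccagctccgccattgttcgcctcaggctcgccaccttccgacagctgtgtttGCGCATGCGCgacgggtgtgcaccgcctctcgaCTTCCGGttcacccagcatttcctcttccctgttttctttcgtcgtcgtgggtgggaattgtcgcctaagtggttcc
NDUFB7 promoter, chr19:14572067-14572316, reverse strand: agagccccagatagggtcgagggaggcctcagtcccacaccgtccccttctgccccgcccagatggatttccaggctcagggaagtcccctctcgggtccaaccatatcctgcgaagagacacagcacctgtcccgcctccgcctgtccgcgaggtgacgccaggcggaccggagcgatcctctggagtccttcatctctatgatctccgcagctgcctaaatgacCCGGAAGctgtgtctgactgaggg
NDUFA13 promoter, chr19:19515975-19516224, forward strand: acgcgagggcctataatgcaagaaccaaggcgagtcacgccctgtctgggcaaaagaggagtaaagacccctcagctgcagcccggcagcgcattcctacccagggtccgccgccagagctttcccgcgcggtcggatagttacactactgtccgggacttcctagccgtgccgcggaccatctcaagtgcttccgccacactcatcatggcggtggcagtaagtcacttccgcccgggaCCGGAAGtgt
Counted back from the start as negative positions, SDHD holds an NRF1 motif that begins at -110 and an ETS motif that begins at -77. The ETS motif begins at -16 in COX6A1, at -24 in NDUFB7 and at -10 in NDUFA13. An ETS motif was present in SDHD, with a flat level, and in NDUFB7 and NDUFA13, which ranged widely. It was not found in NDUFA3 or NDUFS8, which also ranged widely, nor in UQCRC2, which was flat. COX8C, another undetected isoform, did hold the NRF1 motif with the fifth letter left free. Whether the motifs relate to level or range was not tested.

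Total counts per library were 69388544 to 90205244, and every one of the 186768 deposited counts was even, so halved counts, named read pairs below, were used for sampling error. The label of the line was checked against marker genes: 10 of 10 endothelial markers were detected, with a summed level of 3217 to 5124 CPM. Markers of neurons (1 of 6 detected), astrocytes (0 of 5), microglia (0 of 6), mural cells (3 of 6), epithelium (1 of 6) and muscle (0 of 8, summed level 0.917 to 2.58 CPM) were low or undetected. Replicates 2, 7 and 8 stood apart from the other 5 libraries along transcript length and GC content; values without them stand beside the results named below.

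Nearly the whole set was expressed. Of the 88 genes, 79 (89.8%) were detected, which required a CPM of 1 or more in every library, against 51.3% of all listed genes (11980 of 23346). Among the 81 subunits and isoforms, 76 were detected. The 88 genes took 0.760% ± 0.163 (SD, n = 8) of all counts. The share was lowest in replicate 6 at 0.637% (95% Wilson interval 0.635 to 0.640%, counting error only) and highest in replicate 8 at 1.060% (1.057 to 1.063%). Replicate 2 stood at 0.911% and replicate 7 at 0.862%, and the remaining libraries stayed at or below 0.691%.

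The 9 undetected genes fell into recognisable kinds. COX6A2, COX6B2, COX7B2, COX8C and NDUFA4L2 are isoforms known from muscle, testis or low oxygen. UQCRBP1 (0.629 ± 0.378 CPM, n = 8) and ATP5EP2 (0.894 ± 0.531 CPM) are processed pseudogenes of UQCRB and ATP5E, ATP5L2 (0.206 ± 0.0697 CPM) copies ATP5L, and ATP5J2-PTCD1 (0.127 ± 0.0497 CPM) joins 2 neighbouring genes. For such copies, and for the 21 of the 88 genes that overlap another listed gene, counts depend on how shared and opposite-strand reads were assigned, which is not given in the sources used here.

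**Figure D1:**
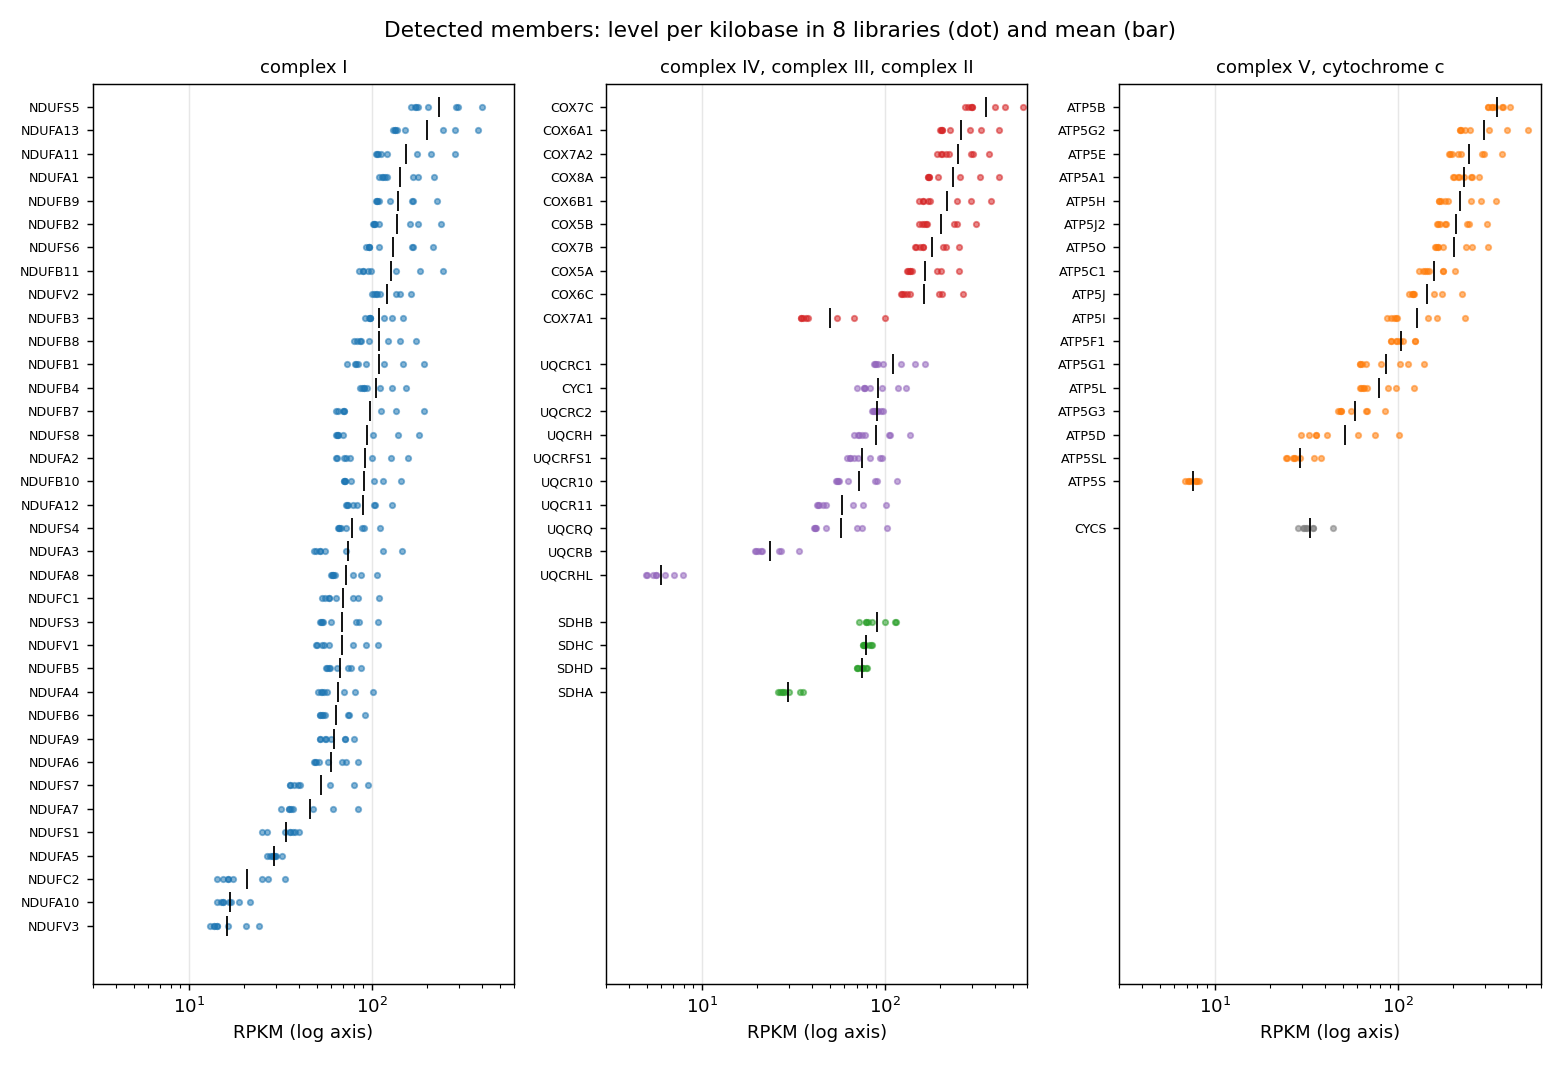
Level per kilobase (RPKM, log axis) of detected genes, grouped by complex, with 1 dot for each of the 8 libraries and a bar at the mean. COX7C of complex IV has the highest mean at 359 RPKM and UQCRHL of complex III the lowest at 5.98 RPKM. ATP5B of complex V, at 345 RPKM, lies within the spread of COX7C.

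By level per kilobase of transcript within the deposited span, the medians of complexes IV and V stood above those of complexes I, II and III. The median over detected genes was 210 RPKM for complex IV (10 detected of 14 listed), 144 for complex V (17 of 20), 78.5 for complex I (37 of 38), 77.03 for complex II (4 of 4) and 73.8 for complex III (10 of 11). CYCS alone stood at 33.1 RPKM. Genes were grouped by symbol, so these medians include ATP5S and ATP5SL under complex V, UQCRHL under complex III and NDUFA4 under complex I. The median of all 11630 detected genes with a length was 12.8 RPKM. For comparison, the mitochondrial ribosomal protein genes had a median of 39.6 RPKM (76 of 76 detected) and the enzymes of the tricarboxylic acid cycle and pyruvate dehydrogenase 29.8 RPKM (16 of 16). Relative to all genes in the same library, the log2 difference of the medians was 4.01 ± 0.47 (SD, n = 8) for complex IV, 3.49 ± 0.38 for V, 2.64 ± 0.43 for I, 2.61 ± 0.09 for II and 2.51 ± 0.36 for III. Without replicates 2, 7 and 8 these became 3.69, 3.23, 2.35, 2.55 and 2.26.

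The order of the complexes moved with the scale. On the CQN values, which the authors adjusted for length and GC content, the same differences from all genes were 1.903 for complex V, 1.83 for IV, 1.62 for CYCS, 1.58 for II, 1.42 for III and 1.10 for I. The genes are short: the median transcript was 737 nt against 2962 nt over all detected genes, and 48 of the 79 (60.8%) were under 1000 nt against 7.59% of all. All 10 detected complex IV genes were under 1000 nt. Annotated transcripts with long 3′ ends lower the level per kilobase of CYCS (5432 nt), NDUFA10 (4855 nt) and UQCRB (4730 nt). Where the part beyond the deposited span was dropped, the level per kilobase is raised instead. Examples are ATP5E (407 of 3610 nt), COX7B (452 of 2444 nt) and ATP5A1 (1865 of 5761 nt). With the full annotated transcript length, complex V came much closer to complex II, with values given at the end of the report. The true ends in these cells are unknown.

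In complex I the core subunits carry the flavin and iron-sulphur centres that move electrons from NADH to quinone, and the accessory subunits surround and stabilise them. The nuclear core subunits had a median of 68.6 RPKM. NDUFV2, an iron-sulphur subunit of the NADH-binding tip, was high among them at 121 ± 23.6 RPKM (SD, n = 8), and NDUFS1, the large iron-sulphur subunit, low at 34.1 ± 5.30 RPKM. NDUFS8 stood at 93.9 ± 44.5 RPKM, NDUFS3 at 68.6 ± 20.9, NDUFV1 at 68.5 ± 22.3 and NDUFS7 at 53.1 ± 23.1. NDUFS3 and NDUFV1 differed by less than their spread between libraries.

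The 29 detected accessory subunits had a median of 90.7 RPKM and spanned 14.4-fold. NDUFS5 was the highest gene of the complex, at 234 ± 85.0 RPKM (n = 8); it lies at chr1:39491967-39500308 (hg19) and has 3 exons. Its CPM ran from 81.5 through a median of 94.4 to 198, with replicates 8, 2 and 7 above the rest. NDUFA13, also known as GRIM-19, followed at 200 ± 94.0 RPKM and NDUFA11 at 153 ± 66.0 RPKM. At the low end were NDUFV3 at 16.3 ± 3.99 RPKM and NDUFA10 at 16.8 ± 2.44 RPKM, both measured over long transcripts. NDUFA4 is named as a complex I subunit but is now assigned to complex IV; it reached 65.2 ± 18.0 RPKM over a 2025 nt transcript.

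Complex II, the succinate dehydrogenase, is the only complex with no mitochondrially encoded subunit. SDHB, the iron-sulphur subunit, had 90.8 ± 16.8 RPKM (n = 8), and the membrane anchors SDHC and SDHD had 79.3 ± 3.63 and 74.7 ± 3.71 RPKM. SDHA, the flavoprotein that oxidises succinate, was lower at 29.6 ± 3.66 RPKM. SDHA was below SDHB per kilobase in 8 of 8 libraries (log2 ratio -1.60 ± 0.14, adjusted p = 0.00827, exact two-sided sign-flip permutation over libraries, adjusted over 18 gene pairs). Without length correction the log2 ratio was -0.41. Listed SDHA pseudogenes had 3.26 (SDHAP1), 3.66 (SDHAP2) and 1.34 CPM (SDHAP3), against 68.4 ± 8.45 CPM for SDHA, so reads shared with these copies could move SDHA.

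SDHC and SDHD had the narrowest ranges of all 79 detected genes. SDHC, at chr1:161284166-161334535 with 6 exons, ran from 99.4 through a median of 102 to 111 CPM, a 1.12-fold range, and SDHD, at chr11:111957571-111966518 with 4 exons, from 94.4 through 100.5 to 107 CPM, a 1.14-fold range. No library stood out for either gene.

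In complex III, CYC1 (cytochrome c1) and UQCRFS1 (the Rieske iron-sulphur protein) are the catalytic nuclear subunits, and UQCRC1 and UQCRC2 form the core facing the matrix. UQCRC1 was the highest at 111 ± 30.4 RPKM (n = 8), CYC1 had 91.4 ± 22.1, UQCRC2 90.4 ± 4.68 and UQCRFS1 75.4 ± 13.8 RPKM. The partners UQCRC1 and UQCRC2 behaved differently across libraries. UQCRC2 ran from 136 through 143 to 157 CPM, a 1.16-fold range, whereas UQCRC1 ran from 139 through 151 to 264 CPM. Their log2 ratio per kilobase was 0.62, 0.50 and 0.75 in replicates 2, 7 and 8 and between -0.01 and 0.09 in the others, with UQCRC1 higher in 7 of 8 libraries (mean 0.26 ± 0.31, adjusted p = 0.0234 by the exact permutation test). Over the other 5 libraries alone the mean was 0.04 ± 0.04, a number of libraries too small to pass the threshold (smallest p 0.0625, exact permutation). On the CQN values the ratio was 0.28 ± 0.07 and above 0 in 8 of 8 libraries. Of the small subunits, UQCRH had 89.0 ± 24.8 RPKM, UQCR10 72.3 ± 23.3, UQCR11 58.4 ± 21.5 and UQCRQ 57.7 ± 22.7, and UQCRB had 23.7 ± 5.14 RPKM over its long annotated transcript. UQCRHL, a near copy of UQCRH, had 1.65 ± 0.29 CPM, and its counts are uncertain because such copies can share reads.

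Cytochrome c shuttles electrons from complex III to complex IV and is also released in apoptosis. CYCS, at chr7:25158270-25164980 with 3 exons, had 180 ± 26.3 CPM (n = 8) and ran from 154 through 171 to 239 CPM. Replicate 7 alone was high; the other 7 libraries lay between 154 and 187 CPM. Against CYC1, its direction depended on length: CYC1 was higher per kilobase in 8 of 8 libraries (log2 ratio 1.45 ± 0.40, adjusted p = 0.00827, exact permutation), but lower on CPM (-0.74) and not past the threshold on CQN values (0.36, adjusted p = 0.119, exact permutation).

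Complex IV genes gave the sharpest contrasts between isoforms. COX7C had the highest mean of the whole set per kilobase, at 359 ± 106 RPKM (n = 8). ATP5B of complex V, at 345 ± 34.7 RPKM, lay within that spread. The rank rests on the length assigned, since mean CQN values were 8.50 for COX7C and 10.3 for ATP5B. The CPM of COX7C ran from 111 through 122 to 231, again highest in replicates 8, 2 and 7. Within complex IV, COX6A1 followed at 261 ± 81.9 RPKM, COX7A2 at 251 ± 64.5, COX8A at 237 ± 93.1 and COX6B1 at 218 ± 82.2. Next came COX5B at 202 ± 58.2, COX7B at 182 ± 40.03, COX5A at 166 ± 45.4 and COX6C at 164 ± 53.2 RPKM. COX7A1 was last at 50.3 ± 23.2 RPKM. Neighbours in this order differed by less than the larger of their SDs, except COX6C and COX7A1.

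COX6A1, the form of the subunit found in most tissues, lies at chr12:120875893-120878545 and had 107 to 226 CPM (median 116), whereas COX6A2, the heart and skeletal muscle form at chr16:31439052-31439749, had 0 counts in all 8 libraries. A count of 0 allows at most 0.0665 to 0.0880 CPM per library, taken as 3 read pairs. COX6A1 was therefore at least 868-fold higher per kilobase in the library with the weakest bound, and at least 2211-fold higher in the one with the strongest. COX7A1, the other muscle form, was not silent: it had 11.8 to 33.9 CPM (median 12.8; 17.1 ± 7.90, n = 8) and was detected in every library. COX7A2, its widely expressed partner, was 5.22-fold higher per kilobase (log2 ratio 2.38 ± 0.25, higher in 8 of 8 libraries, adjusted p = 0.00827, exact permutation). The 8 muscle markers fixed for comparison had no detected gene, and ACTC1 was the highest of them at 1.08 CPM.

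The isoforms known from testis and germ cells were at or near 0. COX7B2 had 1 read pair in all libraries together, against 25912 for COX7B, a length-corrected ratio of 31129 with an exact 95% interval of 5587 to 1229520. COX8C had 8 read pairs against 37376 for COX8A, a ratio of 5022 (2549 to 11632). COX6B2 had 0.331 to 0.799 CPM (0.531 ± 0.195, n = 8), and COX6B1 was 535-fold higher per kilobase on the log2(CPM + 0.1) scale, which understates ratios to low genes. These intervals cover counting error only.

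Isoforms tied to low oxygen were also low. COX4I2, which replaces COX4I1 in lung and under low oxygen, had 7 read pairs in all against 73253 for COX4I1, a ratio of 9923 (4816 to 24682). COX4I1 itself, which the symbol rule passes over, had 230 ± 73.2 CPM and 331 ± 105 RPKM. NDUFA4L2, a paralog of NDUFA4 induced by low oxygen, had 0.117 to 0.248 CPM (0.182 ± 0.0407, n = 8), and NDUFA4 was 214-fold higher per kilobase. For all 6 isoform pairs of complex IV and for NDUFA4, the first-named form was higher in 8 of 8 libraries (adjusted p = 0.00827 for each, exact permutation, close to the smallest that 8 libraries allow, 0.00781 before adjustment). COX6A2 was at 0 in 8 libraries, COX7B2 in 7, COX4I2 in 5 and COX8C in 3. There the ratio is taken against the pseudocount. COX6B2 and NDUFA4L2 had counts but were also undetected. For every pair with an undetected partner the sign follows from detection, so the test adds no support.

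**Figure D2:**
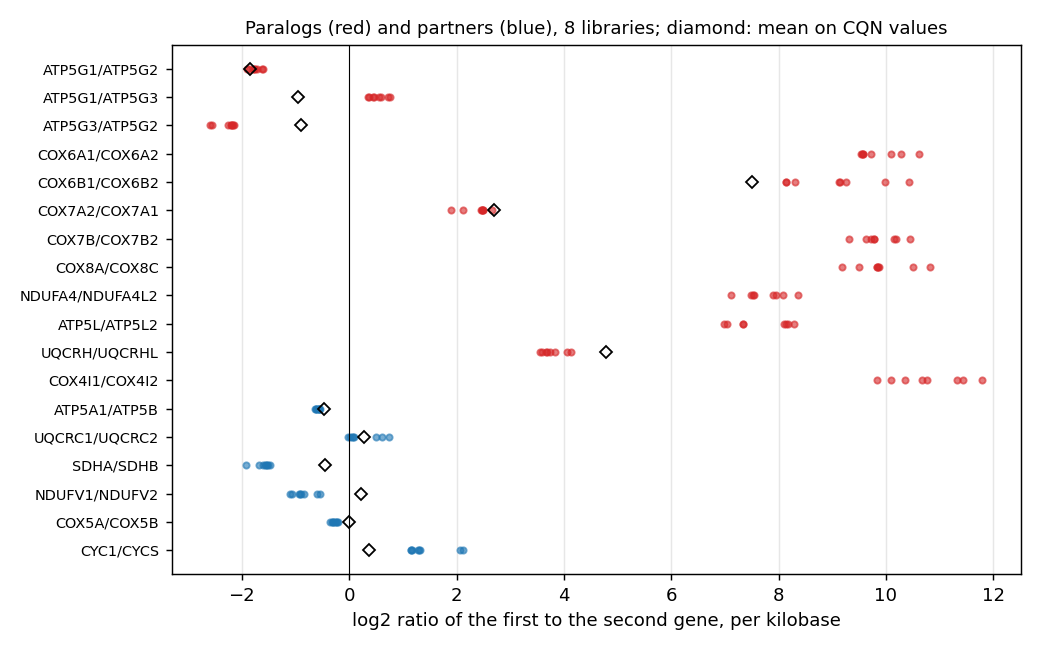
Log2 ratio of the first to the second gene per kilobase for 12 paralog pairs (red) and 6 pairs of partners in a complex or chain (blue), with 1 dot for each of the 8 libraries and a diamond at the mean on the CQN values where both genes have them. A pseudocount of 0.1 CPM keeps COX6A2, at 0 in all libraries, on the plot. Isoform pairs of complex IV other than COX7A2/COX7A1 lie beyond 8 on the log2 scale, and the diamonds of ATP5G1/ATP5G3 and NDUFV1/NDUFV2 fall on the other side of 0 from their dots.

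In complex V, the F1 head that makes ATP is built from ATP5A1 (alpha) and ATP5B (beta), the central stalk from ATP5C1, ATP5D and ATP5E, the rotating membrane ring from the products of ATP5G1, ATP5G2 and ATP5G3, and the peripheral stalk from ATP5F1, ATP5H, ATP5J and ATP5O. ATP5B, at chr12:57031959-57039852 with 10 exons, was the highest gene of the complex at 345 ± 34.7 RPKM (n = 8), with 547 through 584 to 718 CPM. ATP5A1 had 230 ± 28.0 RPKM. Their log2 ratio per kilobase was -0.59 ± 0.03, with ATP5A1 lower in 8 of 8 libraries (adjusted p = 0.00827, exact permutation), and its spread was the smallest of the 18 pairs on that scale. On CQN values the ratio was -0.46 ± 0.14, a wider spread than that of UQCRC1/UQCRC2 (0.07), SDHA/SDHB (0.09) or NDUFV1/NDUFV2 (0.05). Per kilobase the central stalk was uneven, with ATP5E at 245 ± 64.3, ATP5C1 at 157 ± 25.9 and ATP5D at 51.4 ± 25.5 RPKM. ATP5E was measured over 407 nt of a 3610 nt transcript. The order changed on CQN values, with means of 8.39 for ATP5C1, 7.86 for ATP5E and 7.55 for ATP5D. Peripheral stalk genes ran from ATP5H at 219 ± 66.2 and ATP5O at 203 ± 56.4 to ATP5J at 144 ± 38.7 and ATP5F1 at 104 ± 12.8 RPKM. ATP5J shares its locus with GABPA and ATP5E with a readthrough gene, so their counts depend on how such reads were assigned. ATP5SL, known for a part in complex I assembly, had 29.1 ± 4.83 RPKM and ATP5S 7.55 ± 0.48 RPKM.

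The c ring genes encode the same mature protein behind different import signals. ATP5G2 was the highest of the group at 294 ± 107 RPKM (n = 8), above ATP5G1 (86.4 ± 29.1) and ATP5G3 (58.4 ± 13.5). It was higher than ATP5G1 by 3.38-fold and than ATP5G3 by 4.89-fold, in 8 of 8 libraries each (adjusted p = 0.00827 for both, exact permutation), and kept that direction on CPM and on CQN values. The order of ATP5G1 and ATP5G3 rested on transcript length. ATP5G1 was higher per kilobase (log2 ratio 0.53 ± 0.15) but lower on CPM (-1.47) and on CQN values (-0.95), in 8 of 8 libraries each way.

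Among partners in complex I, NDUFV1 was below NDUFV2 per kilobase (log2 ratio -0.86 ± 0.20, 8 of 8 libraries, adjusted p = 0.00827, exact permutation) but above it on CQN values (0.21). COX5A was slightly below COX5B per kilobase (log2 ratio -0.28 ± 0.05), above it on CPM (0.18), and level with it within the spread on CQN values (-0.01 ± 0.10). UQCRC1/UQCRC2 and ATP5A1/ATP5B kept their direction per kilobase, on CPM and on CQN values, and the direction of the complex IV isoform contrasts was the same on CPM. All 18 ratios passed the threshold per kilobase, and on CQN values 10 of the 12 pairs that have such values did. The test asks only whether a ratio leans steadily to the same side across libraries. A fixed offset such as the assigned length can give that. ATP5G1/ATP5G3 passed in opposite directions, with a log2 ratio of 0.53 per kilobase and -1.47 on CPM (adjusted p = 0.00827 and 0.00879, exact permutation). The number of ratios that passed is therefore not a result about these genes.

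Most of the genes shared a pattern across libraries. Replicate 8 held the highest CPM of 73 of the 79 detected genes, against 36.0% of all detected genes. The exceptions were ATP5S, CYCS, NDUFA5 and SDHD, highest in replicate 7, NDUFS1, highest in replicate 3, and SDHC, highest in replicate 1. On log2(CPM + 1), 77 of 79 were above their own mean in replicate 8 (52.8% of all genes), 74 in replicate 2 (53.2%) and 78 in replicate 7 (50.4%). The median deviation was 0.65 in replicate 8, 0.33 in replicate 2 and 0.22 in replicate 7, and between -0.28 and -0.15 in the other 5 libraries, where the quartiles of the genes did not reach 0. By complex, the replicate 8 median was 0.72 for IV, 0.70 for I, 0.62 for V and 0.58 for III, but 0.18 for complex II and -0.12 for CYCS.

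NDUFS1, singled out after its values were seen, was below its own mean in replicates 8 and 2, as was CYCS. Its lowest values were 85.6 CPM in replicate 8 and 91.5 CPM in replicate 2, with 115 to 136 CPM elsewhere. It has the longest transcript of the core subunits, 3398 nt in 19 exons. On CQN values it was nearly flat, from 7.18 to 7.35 with an SD of 0.06. NDUFA5 and ATP5S had a 1.20-fold range each on CPM.

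**Figure D3:**
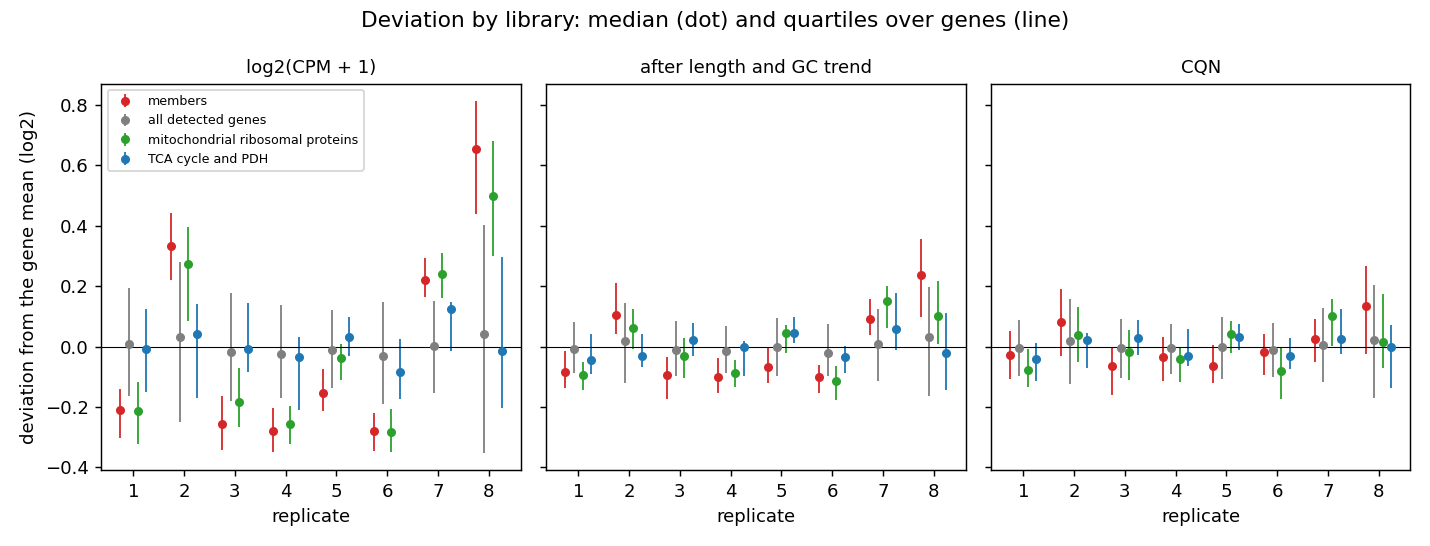
Deviation from each gene's own mean over the 8 libraries (log2), with a dot at the median over genes and a line across the quartiles, for the oxidative phosphorylation genes (red), all detected genes (grey), mitochondrial ribosomal proteins (green) and the tricarboxylic acid cycle with pyruvate dehydrogenase (blue). On log2(CPM + 1) the red median in replicate 8 is 0.65; it is 0.24 after the trend on length and GC content is removed and 0.13 on CQN values.

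The shared pattern went with transcript length and GC content in replicates 8 and 2, and more weakly in replicate 7. Across the 79 genes, the deviation in replicate 8 had a Spearman correlation of -0.52 with length and 0.60 with GC content. In replicate 2 these were -0.44 and 0.69, and in replicate 7 -0.29 and 0.14. Over all 11630 detected genes with a length they were -0.64 and 0.60 in replicate 8, -0.57 and 0.66 in replicate 2, and -0.49 and 0.34 in replicate 7. The points of each correlation share a library. After each library's smooth trend on length and GC content over all genes was removed, 68 of 79 were still above their mean in replicate 8 (54.5% of all genes), with a median of 0.24. On CQN values 54 of 79 were (53.2% of all genes), with a median of 0.13. Among transcripts under 1000 nt, the replicate 8 median was 0.55 for 11 members with GC under 45%, 0.70 for 22 with GC from 45 to 55% and 0.98 for 15 with GC of 55% or more. In all detected genes of the same length and GC classes it was 0.39, 0.60 and 0.80. In the same library, on log2(CPM + 1), the cytosolic ribosomal protein genes were at 0.72 and mitochondrial ribosomal protein genes at 0.50. The tricarboxylic acid cycle and pyruvate dehydrogenase genes were at -0.01. With the length and GC trend removed, these sets were at 0.30, 0.10 and -0.02 in that order. Their medians on CQN values were 0.10, 0.02 and -0.001. Whether the shift reflects the cells or the libraries was not tested.

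**Figure D4:**
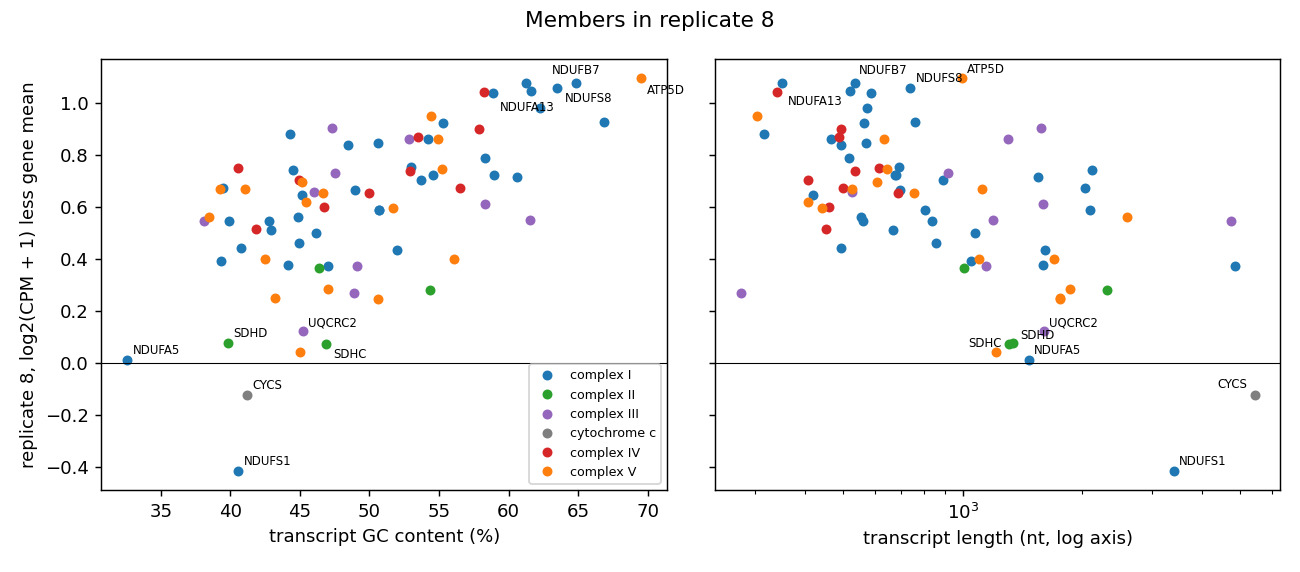
Deviation of each of the 79 detected genes in replicate 8 from its own mean, on log2(CPM + 1), against transcript GC content (left) and transcript length (right, log axis), with 1 dot for each gene coloured by complex. ATP5D, at 69.5% GC, lies at 1.10, while the long transcripts of CYCS and NDUFS1 lie at -0.12 and -0.42.

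Against the variation expected at their level, 5 of the 79 genes (6.33%) varied more than the trend, against 4.66% of all genes (558 of 11980; edgeR goodness of fit to the dispersion trend, adjusted p under 0.05), a share near the background. At an unadjusted p under 0.05 by the same test there were 21 of the 79, a larger share than the 13.1% of all genes. The 5 genes past the adjusted threshold were ATP5D (adjusted p = 0.0122), NDUFA13 (0.0311), NDUFB7 (0.0311), NDUFS8 (0.0318) and NDUFA3 (0.0328). In each of the 5 the 3 highest libraries were 8, 2 and 7. ATP5D, the delta subunit of the central stalk at chr19:1241749-1244824, ran from 29.4 through 38.1 to 101 CPM, a 3.43-fold range and the widest of the set. NDUFB7 had 34.3 through 37.7 to 103 CPM and NDUFA3 had 16.9 through 18.9 to 51.4 CPM. NDUFS8, a core iron-sulphur subunit at chr11:67798084-67804114, had 46.9 through 49.8 to 134 CPM, and NDUFA13 had 68.4 through 75.4 to 199 CPM. NDUFB11 ran from 49.7 through 56.9 to 144 CPM, a 2.90-fold range that was wider than the 2.86-fold range of NDUFS8, and did not pass the threshold (adjusted p = 0.0520).

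All 5 have GC-rich transcripts, from 61.3% in NDUFA3 to 69.5% in ATP5D, against a median of 48.5% over the 79 genes. With the trend on length and GC content as an offset none of the 5 was called, and 8 other genes were: ATP5G3, CYCS, NDUFA10, NDUFA4, NDUFB1, NDUFC2, UQCRB and UQCRQ. The share of all genes called with this offset is not reported here, so the 8 are not set against a background. No gene of the set was called without replicate 1, without replicate 8, or with replicates 2, 7 and 8 left out. ATP5D alone was called without replicate 3, 4, 5 or 6. The shares of all genes called with 1 replicate left out are not reported here, so these counts have no background. On CQN values the SD over libraries was 0.07 for ATP5D, 0.09 for NDUFB7, 0.06 for NDUFS8 and 0.06 for NDUFA13, and 0.14 for NDUFA3. The median fold between the highest and the lowest library was 1.96 over the 79 genes, and 43 stayed under 2-fold. With replicates 2, 7 and 8 left out, the median fold was 1.12 and all 79 stayed under 2-fold. These fold values are not set against all genes, and fewer libraries tend to give a narrower range. For transcripts under 1000 nt, the median log2 range over the 8 libraries was 0.82, 1.04 and 1.42 in members, from the lowest to the highest GC class. In all detected genes of these classes it was 0.71, 0.95 and 1.24.

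**Figure D5:**
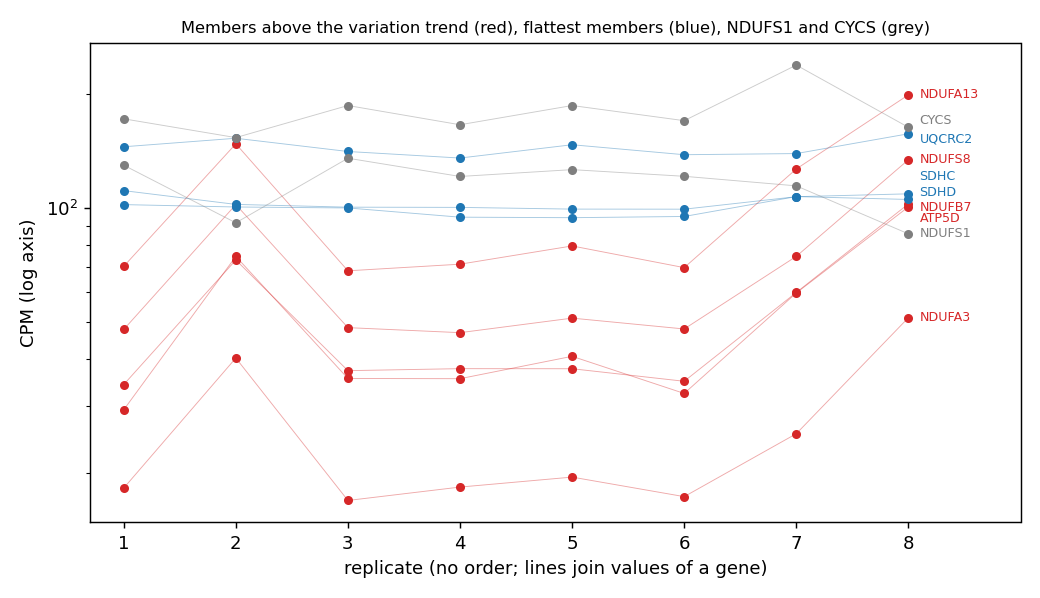
CPM (log axis) in each of the 8 replicates for the 5 genes above the variation trend (red), the 3 subunits with the narrowest ranges (blue) and NDUFS1 and CYCS (grey), with thin lines joining the values of a gene. ATP5D lies at 29.4 CPM in replicate 1 and at 101 CPM in replicate 8, SDHC stays between 99.4 and 111 CPM, and NDUFS1 is lowest in replicate 8 at 85.6 CPM.

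Nearly all of the listed genes that assemble and regulate the complexes were detected. All listed assembly factors were detected: 12 of 12 for complex I, led per kilobase by NDUFAF3 and NDUFAF2 (55.3 ± 19.95 and 27.6 ± 4.32 CPM), 4 of 4 for complex II, led by SDHAF2 (45.1 ± 8.86 CPM) and SDHAF1 (8.81 ± 3.52 CPM), and 5 of 5 for complex III, led by MNF1 (41.5 ± 16.0 CPM) and BCS1L (27.3 ± 5.52 CPM). For complex IV 15 of 15 were detected, led by COX14 (29.3 ± 8.97 CPM) and the copper chaperone COX17 (23.6 ± 7.56 CPM), and for complex V 3 of 3, led by ATPAF1 (48.2 ± 1.44 CPM) and TMEM70 (26.2 ± 3.01 CPM). None of these genes varied more than the trend, against 4.66% of all detected genes. In lists this short that is no result about them. Planned factors whose symbols are not in the count table, among them NDUFAF6, UQCC3 and PET100, were not measured. Of 12 regulators of mitochondrial biogenesis 11 were detected. The mitochondrial DNA factor TFAM had 75.1 ± 15.1 CPM and YY1 had 71.2 ± 6.12 CPM, and the coactivator PPARGC1A, which drives mitochondrial biogenesis in muscle and fat, was not detected at 0.0106 ± 0.0215 CPM (n = 8). Its relatives PPRC1 and PPARGC1B had 97.9 ± 13.7 and 2.76 ± 0.89 CPM. Of the other factors whose motifs were searched in the promoters, GABPA had 50.3 ± 15.9, ESRRA 33.0 ± 8.96 and NRF1 25.4 ± 1.26 CPM.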

How the data were processed

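Per the labels' protocols, Illumina's TruSeq RNA v2 kit was used for the libraries. The submitters' processing notes name CASAVA 1.9, TopHat2 2.0.6, HTSeq and the hg19 build. The gene annotation, the use of strand and the treatment of reads with several matches are not given in the sources used here. The authors deposited raw counts per gene for each of the 8 libraries, whole numbers that were not normalised. Beside them the authors deposited CQN-normalised values, read as log2 from their range, whose parameters are not stated; 6 of the 88 genes have none. Column names carry the replicate number, which ties each column to its sample, and 0 sample columns were left over.

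CPM values, scaled by the trimmed mean of M-values, used edgeR 4.0.16 in R 4.3.3 on the counts as deposited. Variation above the trend was tested across all detected genes by the goodness of fit of an intercept-only edgeR model to the trended dispersion, with Benjamini-Hochberg adjustment; the procedure was tested on simulated data. Pair ratios were taken per library on log2((CPM + 0.1) per kilobase) and tested over the 256 sign patterns, with adjustment over 18 pairs. Lengths and GC content came from GENCODE 44 lifted to GRCh37, using the canonical transcript within the deposited gene span, or the longest basic transcript where there was none. The part beyond the span was dropped, and in 17 of the 88 genes less than 80% of the transcript was left. Symbols matched directly for 68 of the 88 genes and through a RefSeq synonym for 20. Deviations were taken on log2(CPM + 1), with trends on length and GC content removed by splines with 4 degrees of freedom each.

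The genes named are all genes of the pairs, the 3 highest and 2 lowest detected genes of each complex by RPKM, undetected genes, genes above the trend, the 5 widest and 5 narrowest ranges and the leading genes of other lists, of which some are not printed; further genes are given to complete a role. Members and lists were chosen with earlier results of these data known. Alternatives changed the scaling, the low-count filter, the pseudocount, the length correction, the dispersion trend (DESeq2 1.42.0) and the libraries used. The full transcript length, and leaving out replicates 2, 7 and 8 together, were added after the data were seen. Protein sequences of the paralogs were not analysed here, and 1 gene of the set is counted but not reported by name.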

Additional observations from a re-analysis of the deposited data

Results flagged for a closer look

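Of 79 detected genes tested, the CPM of 1 had a single library far from the others. CYCS, the mobile electron carrier, had 239 CPM in replicate 7 against 154 to 187 CPM in the other 7 libraries. The gap to the nearest library was 0.611 of the whole range, above the 95% critical value of Dixon's test for 8 samples. Chance alone passes this limit in about 1 of 20 groups, so 1 of 79 genes (1.27%) is under that share, and 343 of all 11980 detected genes (2.86%) passed it. After the trend on length and GC content was removed, replicate 7 no longer stood alone: the CYCS deviation was 0.58 there, 0.39 in replicate 8 and 0.16 in replicate 2. On CQN values it was 0.56, 0.39 and 0.19 in the same order.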

How the results depend on the processing

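The count of detected genes stayed at 79 when each replicate was left out in turn (79 to 79) and when replicates 2, 7 and 8 were left out together. The 5 genes above the variation trend became 33 with the DESeq2 trend, 8 with the length and GC trend as an offset (0 of them shared with the 5) and 0 with replicates 2, 7 and 8 left out; leaving out 1 replicate gave 0 to 5. With replicates 2, 7 and 8 left out, 297 of all genes (2.42%) were called. The shares of all genes called with the DESeq2 trend and with the offset are not reported here. The counts of 33 and 8 are therefore not a result about these genes. Pair ratios past the threshold were 18 when any replicate was left out (18 to 18), and 10 on CQN values, where 12 pairs could be formed. A steady offset from the assigned length is enough to pass, so these counts are not a result about the pairs. The log2 ratio of ATP5G1 to ATP5G3 reversed to -1.47 on CPM and -0.95 on CQN values, NDUFV1 to NDUFV2 to 0.21 on CQN values, COX5A to COX5B to 0.18 on CPM and CYC1 to CYCS to -0.74 on CPM; each of these pairs differs in the length assigned. The difference of the complex medians from all genes, on the log2 scale, moved on CQN values to 1.10 for I, 1.58 for II, 1.42 for III, 1.62 for CYCS, 1.83 for IV and 1.903 for V. The full canonical transcript length gave 2.77 for II and 2.92 for V, so the height of V over II rested largely on the length used. Leaving out 1 replicate gave 2.53 to 2.69 for I, 2.59 to 2.63 for II, 2.43 to 2.55 for III, 1.33 to 1.42 for CYCS, 3.89 to 4.06 for IV and 3.39 to 3.53 for V. The count above the mean in replicate 8 was 75 to 77 under the other scalings. Depth limits only the undetected isoforms, where a handful of read pairs decide the ratio. No paired analysis was possible because all samples form 1 group.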
